A study of Mus musculus with 68 samples.

Results

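The subject is a set of 10 genes for the synthesis of serine, asparagine, proline and cysteine and for the mitochondrial folate pathway, followed in mouse embryonic fibroblasts (MEFs) under endoplasmic reticulum (ER) stress. The members were listed by name, Asns, Phgdh, Psat1, Psph, Shmt2, Mthfd2, Aldh18a1, Pycr1, Cth and Aldh1l2, and all 10 were found by Ensembl identifier among the 13197 genes of the founder tables and among the 12803 genes of the F1 tables. All 10 passed the filter on low values in every test. The study exposed MEFs to tunicamycin (TM), a drug that blocks N-linked glycosylation and lets misfolded proteins build up in the ER, and measured messenger RNA by sequencing. It asked how far the transcriptional response varies with genotype.

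The founder set held 40 libraries of A/J (A), C57BL/6J (B6), 129S1Sv/ImJ (129), NOD/ShiLtJ (NOD), NZO/H1LtJ (NZO), CAST/EiJ (CAST), PWK/PhJ (PWK) and WSB/EiJ (WSB). The F1 set held 28 libraries of crosses of C57BL/6J females with 129, CAST, NOD, NZO or WSB males, here called x129, xCAST, xNOD, xNZO and xWSB. Treated cells received 2 ug/ml of TM in DMSO for 4 h, and the controls received DMSO alone for the same time. In the founder set, A and PWK had 3 libraries per treatment, B6 and CAST had 2, and the other strains had 2 of the control and 3 of TM. In the F1 set, x129, xNZO and xWSB had 3 per treatment, xCAST had 2 of the control, and xNOD had 2 of TM. The cells of a genotype were primary MEFs pooled from female embryos, so a strain and its pool of cells cannot be told apart. Replicates were parallel treatments, and the p-values measure the spread between these libraries, which may be technical.

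Serine is made from a glycolytic intermediate in a chain of enzymes, and mitochondria pass its side-chain carbon to folate, which supplies formate and purine precursors to the rest of the cell. Asparagine and proline are made by separate enzymes from aspartate and glutamate, and cysteine by others from serine and methionine-derived homocysteine. Many of these genes are known targets of ATF4, the transcription factor of the integrated stress response, whose translation increases when the ER stress kinase PERK phosphorylates the initiation factor eIF2. ATF4 binds composite C/EBP-ATF response elements with the core TGATGNAA.

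The regions upstream of the members' start sites are shown because such elements are short and can be read directly. RefSeq promoter windows (GRCm38.p6, 250 bases before and 50 after the annotated start) matched 8 of the 10 members, in 9 windows, since Psat1 has 2. Cth and Aldh1l2 had no window. The letters TGATGNAA, searched on both strands, were in the windows of 2 members, Asns and Pycr1, and in 3.97% of all 32851 windows. The ER stress response element, CCAAT and CCACG with 9 bases between them, was in 0 of the 9 windows and in 0.119% of all windows. The lines that follow hold the 150 bases before the start of both genes with a match and, for contrast, of Psph and Mthfd2, which had none. Capitals mark TGATGNAA, and each is read 5′ to 3′ on the strand of the gene, the minus strand, at chr6:7693210-7693359 (Asns), chr11:120643749-120643898 (Pycr1), chr5:129787254-129787403 (Psph) and chr6:83317605-83317754 (Mthfd2).
Asns: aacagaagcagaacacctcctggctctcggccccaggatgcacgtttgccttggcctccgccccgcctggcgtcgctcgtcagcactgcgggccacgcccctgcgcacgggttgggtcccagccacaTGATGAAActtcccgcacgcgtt
Pycr1: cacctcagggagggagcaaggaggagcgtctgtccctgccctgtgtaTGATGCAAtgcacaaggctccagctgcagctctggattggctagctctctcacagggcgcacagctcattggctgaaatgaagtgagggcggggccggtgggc
Psph: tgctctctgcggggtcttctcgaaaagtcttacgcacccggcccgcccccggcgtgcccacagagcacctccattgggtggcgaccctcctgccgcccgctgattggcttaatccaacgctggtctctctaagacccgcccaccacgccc
Mthfd2: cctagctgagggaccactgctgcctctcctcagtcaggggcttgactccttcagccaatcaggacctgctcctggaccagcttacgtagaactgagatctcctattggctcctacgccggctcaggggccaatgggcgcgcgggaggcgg

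The match of Asns began at position -23 and that of Pycr1 at -103, counted from the annotated start, with -1 the base before it. A match of letters is a description, and its absence from a window says nothing about sites elsewhere. Of the 4 genes shown, Asns, Psph and Mthfd2 rose with TM in both sets, while Pycr1, which carries the letters, was the least changed of the 10, as described below. The other members with a window and no match, Phgdh, Psat1, Shmt2 and Aldh18a1, were higher by less than 1.5 fold on average in either set.

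All 10 genes lie on the minus strand (GENCODE M21, GRCm38). Phgdh is at chr3:98313170-98339990, Psat1 at chr19:15904678-15947337 and Psph at chr5:129765558-129787449. Shmt2 is at chr10:127517123-127522444, Mthfd2 at chr6:83305691-83325908 and Aldh1l2 at chr10:83487450-83534140. Asns is at chr6:7675169-7693254, Aldh18a1 at chr19:40550257-40588463, Pycr1 at chr11:120635712-120643769 and Cth at chr3:157894248-157925077. The merged exons of Aldh1l2 share 1056 bases with D10Wsu102e on the opposite strand, and those of Psph share 452 with Cct6a. No source used here says that counting was by strand, and reads in the shared bases cannot be assigned to one gene of a pair. D10Wsu102e had a median of 60.6 TMM-scaled RPM in the founder controls and 76.4 in the TM libraries, and Cct6a had 272 and 312. The part of either gene in the values of Aldh1l2 and Psph was not tested.

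Recovered depth ranged from 7091923 to 21530282 reads on genes in the founder libraries and from 6442976 to 29528457 in the F1 libraries. All values are TMM-scaled RPM, reads of a gene relative to the library size after a scaling between libraries (TMM), with no division by gene length. The treatment checks passed in both sets. Hspa5, the ER chaperone BiP, rose by 2.82 on the log2 scale on average over the founders and by 2.90 over the crosses, and Atf4 rose by 1.21 and 1.17 (limma, adjusted p = 5.88e-17 and 2.11e-14 for Atf4). Summed fibroblast markers stood between 11785 and 44959 in the founder libraries, against 6.68 to 62.3 for 6 myeloid, 1.67 to 19.9 for 5 endothelial and 2.80 to 78.3 for 3 epithelial genes listed there. From controls to TM libraries the median fibroblast sum went from 21783 to 16734 and the median myeloid sum from 28.1 to 16.6, and their part in the changes with TM was not tested. Tyrobp was at 0 in 13 and Cdh1 in 14 of the 40 libraries, and Epcam and Krt5 were not listed in either set. In the F1 libraries the fibroblast sum was 10488 to 24821, against 4.22 to 22.001 for 4 myeloid, 1.00 to 19.0 for 5 endothelial and 0.502 to 26.5 for 2 epithelial genes. Summed markers of cycling cells spanned 485 to 1072 in the founders, lowest in WSB and highest in CAST, and in the F1 set xWSB stood at 138 to 171 and the other crosses at 379 to 704. In 5 libraries the values of genes differed from the other libraries of the group with an SD over 0.5 on the log2 scale. These were control replicate 1 and TM replicate 2 of A, TM replicate 3 of NZO, and control replicate 1 and TM replicate 1 of xWSB. They enter the values of A, NZO and xWSB throughout and are named beside only some of these. In control replicate 1 of A, Hspa5 read 1587, against 861 and 836 in the other controls of A.

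The first comparison asks which members TM changed on average over the genotypes, each genotype weighing the same. In the founders, Cth rose most, by 1.19 ± 0.05 on the log2 scale (SE, 40 libraries), followed by Psph (0.92 ± 0.07), Asns (0.86 ± 0.06), Mthfd2 (0.79 ± 0.04) and Aldh1l2 (0.76 ± 0.10). These 5 of 10 passed an adjusted p of 0.01 with at least 1.5 fold (limma), where 6.04% of the 13197 genes tested rose by that rule. The other 5 were higher by less than 1.5 fold, Aldh18a1 by 0.53, Shmt2 by 0.46, Psat1 by 0.38, Phgdh by 0.27 and Pycr1 by 0.21, with adjusted p between 9.76e-12 for Psat1 and 0.00635 for Phgdh. Without a minimum fold all 10 members passed upwards in the founders, against 20.5% of all genes. By the rule with 1.5 fold 0 members fell, where 5.41% of all genes did. The median of the members was 0.65 on the log2 scale, and that of all genes was -0.04. In these pooled cultures, fewer cells of a kind and less RNA per cell cannot be told apart.

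**Figure D1:**
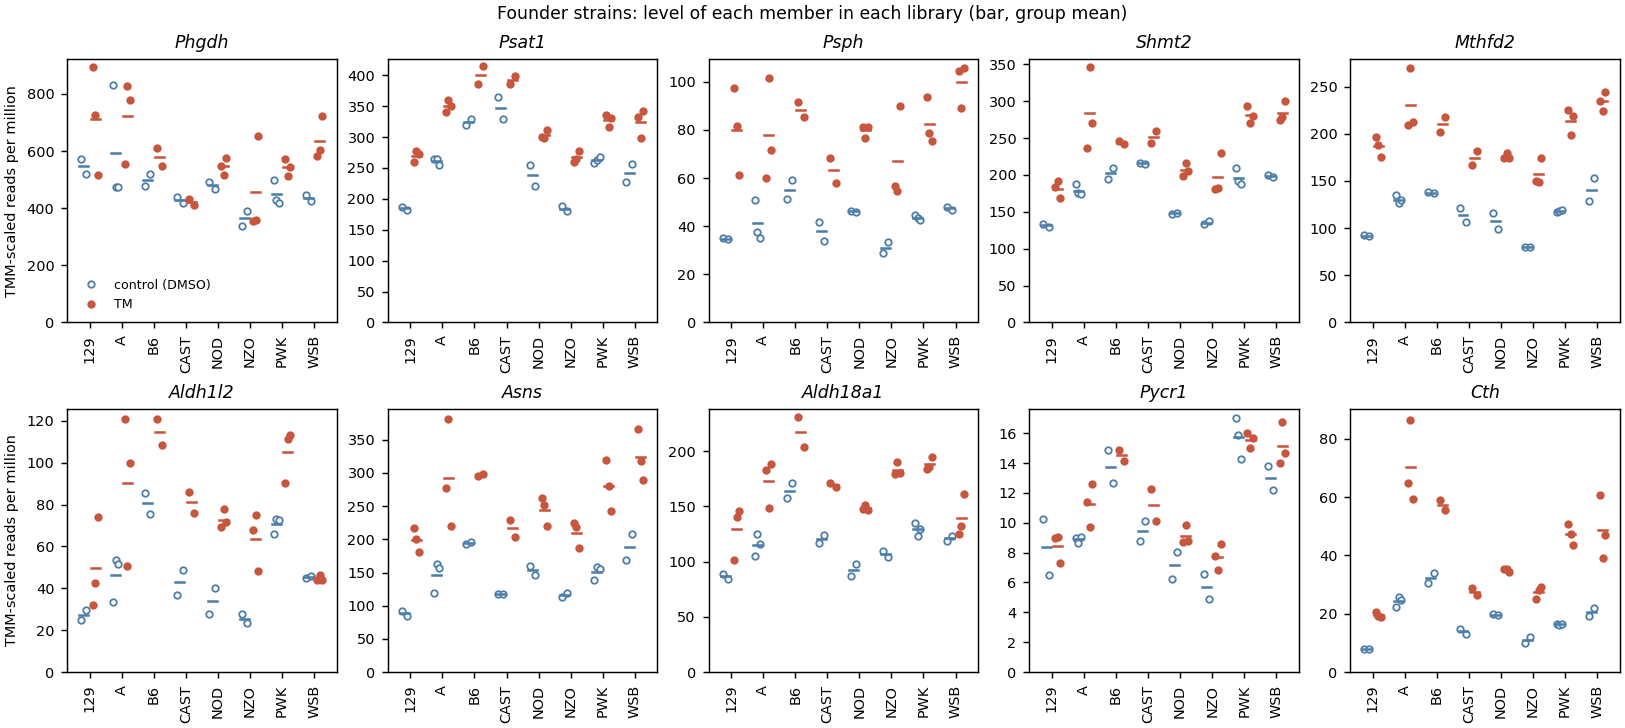
Level of each member in the 40 founder libraries, in TMM-scaled RPM on linear axes that start at 0. Open circles are DMSO controls, filled circles TM libraries and bars group means of 2 or 3 libraries. TM libraries lie above every control of their strain in all 8 strains for Asns, Psat1, Psph, Shmt2, Mthfd2, Aldh18a1 and Cth, and overlap with controls in 4 strains for Phgdh, 3 for Pycr1 and 2 for Aldh1l2.

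The F1 crosses gave the same 5 calls. Cth rose by 1.07 ± 0.07 (SE, 28 libraries), Psph by 0.96 ± 0.06, Mthfd2 by 0.78 ± 0.04, Asns by 0.61 ± 0.07 and Aldh1l2 by 0.59 ± 0.10, against 4.95% of 12803 genes called up by that rule, and 0 members fell, where 5.54% of all genes did. Asns and Aldh1l2 were near the minimum fold. Aldh1l2 was under it, at 0.53 to 0.58, without control replicate 3 of x129, control replicate 2 or TM replicate 1 of xCAST, TM replicate 2 of xNOD, control replicate 1 or TM replicate 3 of xNZO, or control replicate 1 or TM replicate 2 or 3 of xWSB. Asns was under it, at 0.57 and 0.58, without TM replicate 1 of xNOD or of xWSB. Without the 2 libraries of xWSB that stood apart, their means were 0.58 and 0.57 and 3 members remained called, Psph, Mthfd2 and Cth. Without a minimum fold 9 members passed upwards, where 16.9% of all genes did. The exception was Pycr1, whose mean change was 0.01 ± 0.08 (adjusted p = 0.947), with 6 of 14 TM libraries above the median control of their cross.

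**Figure D2:**
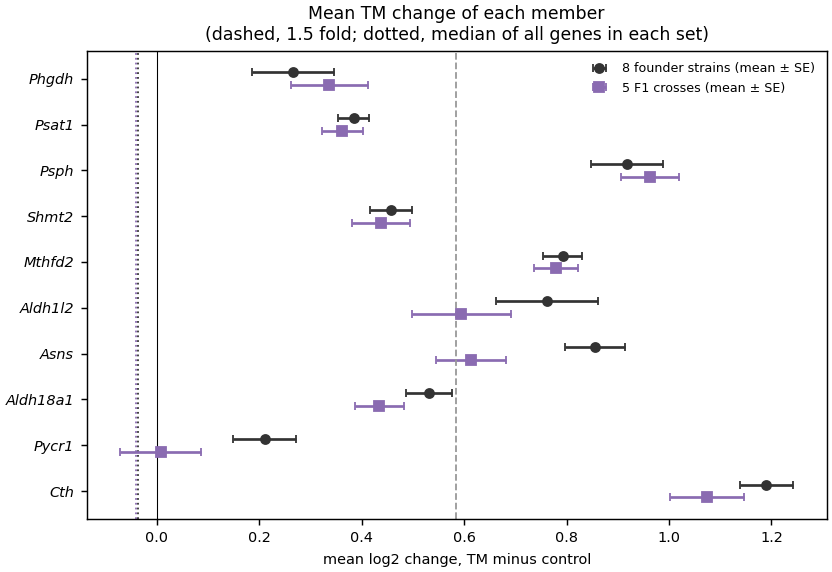
Mean log2 change (TM minus control, x axis) of each member over the 8 founder strains (circles) and over the 5 F1 crosses (squares), with SE. The dashed line marks 1.5 fold and the dotted lines the median of all genes, -0.04 in either set. Cth lies farthest to the right in both sets and Pycr1 farthest to the left.

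The enzymes of the serine chain differed in the size of their change. Phgdh makes the first committed step, from phosphoglycerate, Psat1 the transamination that follows, and Psph removes the phosphate to release serine. Per kb of merged exon, Phgdh was the most abundant member in founder controls (median 189 TMM-scaled RPM per kb), Psat1 stood at 60.4 and Psph at 9.89. The order of the changes was the reverse of the order of these levels. Psph rose by 0.92 in the founders, Psat1 was higher by 0.38 and Phgdh by 0.27.

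For Psph every TM library lay above every control of its genotype in the 8 founders and in the 5 crosses. In B6 the controls read 51.2 and 59.1 and the TM libraries 91.6 and 85.3. In WSB they read 48.1 and 46.9 against 105, 88.9 and 106. NZO controls, the lowest, stood at 28.7 and 33.2, and the TM libraries at 56.5, 54.8 and 90.1. The last of these is TM replicate 3, which stood apart, and without it the change of Psph in NZO was 0.85 instead of 1.08. Over the founders the change ran from 0.68 in B6 to 1.18 in 129, and over the crosses from 0.79 in x129 to 1.15 in xNOD.

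Psat1 was higher by small amounts in every genotype. Its control libraries spanned 179.8 to 365 and its TM libraries 259 to 414 over the founders, with each TM library above the controls of its strain. The change was smallest in CAST, from 365 and 329.7 to 386 and 399, and largest in 129, from 187 and 183 to 259, 277 and 272. On the log2 scale these changes were 0.18 and 0.54. In the crosses it lay between 0.27 and 0.48, and no genotype passed the 1.5-fold minimum.

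Phgdh had the most strains with overlapping groups in the founders, 4 of 8. In CAST the controls read 441 and 417 and the TM libraries 433 and 411, a change of -0.02. In WSB they read 448 and 424 against 583, 603 and 721, a change of 0.54 (adjusted p = 0.0263 within WSB). Controls and TM overlapped in 129, A, CAST and NZO. In A control replicate 1 stood at 831 and the other controls at 475 and 475, and the TM libraries at 555, 829 and 780.2. In NZO the TM libraries read 355, 359.5 and 654 against controls of 338 and 390.2, and without TM replicate 3 the change went from 0.27 to -0.02. Unlike the founders, the crosses all had a positive mean change, from 0.16 in x129 to 0.46 in xNOD, and all 14 TM libraries were above the median control of their cross.

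In the mitochondrial folate pathway Shmt2 splits serine into glycine and a folate-bound carbon, Mthfd2 oxidises that carbon, and Aldh1l2 oxidises formyl-folate to carbon dioxide with the production of NADPH. Mthfd2 rose in both sets with the smallest relative error of the 3. Its controls spanned 79.8 to 153 and its TM libraries 149 to 269.6 in the founders. In NZO it went from 79.8 and 80.1 to 149, 149 and 174, and in WSB from 128 and 153 to 235, 224 and 244. The change ran from 0.61 in B6 to 1.02 in 129 and, in the crosses, from 0.63 in xWSB to 0.97 in xNZO. TM values of Mthfd2 in the crosses were close to each other, with means from 146 in xCAST to 159.7 in xWSB (154 without TM replicate 1), while the control means ran from 75.5 in xNZO to 103 in xWSB.

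Shmt2 was higher in every TM library than in the controls of its genotype, by 0.22 in CAST to 0.65 in A over the founders and by 0.31 in xCAST to 0.55 in xNZO over the crosses. In CAST the controls of 216 and 215 were met by TM values of 243 and 259. In A the controls of 187, 175 and 174 were met by 236, 346 and 270.5, the highest being TM replicate 2, which stood apart, and without it and control replicate 1 the change in A was 0.54. No genotype reached both thresholds for Shmt2.

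Aldh1l2 had the widest range of change of the 10. In NOD the controls read 27.7 and 40.2 and the TM libraries 69.1, 77.8 and 71.5. In NZO they read 27.7 and 23.2 against 67.9, 75.2 and 48.1. WSB, in contrast, gave 44.8 and 45.9 in the controls and 44.0, 46.5 and 44.0 with TM. The log2 change was thus 1.12 in NOD, 1.30 in NZO (1.49 without TM replicate 3) and -0.02 ± 0.15 (SE) in WSB. The WSB controls differed in markers of other cells, with summed levels of 4.85 and 46.3 for epithelial, 3.24 and 19.9 for endothelial and 8.23 and 29.2 for myeloid genes in the 2 controls, while the TM libraries reached at most 7.48, 3.74 and 7.28. The part of this in the WSB changes was not tested. Some of the spread lay between libraries of one group. The TM libraries of 129 read 32.1, 42.6 and 74.2 against controls of 24.8 and 29.6, and those of A read 121, 50.6 and 99.9 against 33.6, 53.7 and 51.4. In A the low value was TM replicate 2 and the low control replicate 1, both of which stood apart, and without them the change in A was 1.06 in place of 0.91. B6 began from the highest controls, 85.7 and 75.5, and reached 121 and 108, a change of 0.51, and PWK went from 65.9, 73.0 and 72.8 to 90.2, 111 and 113, a change of 0.57.

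Asns makes asparagine from aspartate and glutamine. Its controls spanned 84.6 to 209 in the founders and its TM libraries 181 to 382. In 129, with the lowest controls, it went from 92.3 and 84.6 to 217, 201 and 181, a log2 change of 1.17. In B6, with the highest mean of the controls, it went from 193 and 195 to 295 and 298, a change of 0.61. The TM libraries of all 8 strains lay above their own controls. In the crosses 4 changes lay between 0.64 in x129 and 0.74 in xNOD, and that of xWSB was 0.26 ± 0.21 (SE), with controls of 169, 149 and 159.9 and TM libraries of 251, 178 and 154. The highest TM value of xWSB was replicate 1, and without both libraries of xWSB that stood apart the change was 0.10.

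Proline is made from glutamate by Aldh18a1, which forms the pyrroline intermediate, and by Pycr1, its mitochondrial reductase. Aldh18a1 was higher in every TM library than in the controls of its genotype in both sets. Its change was largest in NZO, from 109 and 104 to 179, 190.1 and 180.2, or 0.78 on the log2 scale. It was smallest in WSB, from 119 and 123 to 125, 132 and 161, or 0.20, and in the crosses it ran from 0.19 in xNOD to 0.75 in xNZO. WSB and xNOD, lowest for Aldh18a1 in their set, were also the lowest for Aldh1l2, and NZO and xNZO were the highest for both. Over the 40 founder libraries the log2 levels of both genes had a Pearson r of 0.87, and over the 28 F1 libraries 0.91, a description over libraries that share genotypes and treatments.

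Pycr1 was the least abundant member, with founder controls between 4.87 and 17.0 TMM-scaled RPM (median 2.43 per kb). PWK controls of 17.0, 15.9 and 14.2 stood beside TM values of 16.0, 15.0 and 15.7. NZO controls of 6.57 and 4.87 stood beside TM values of 7.75, 6.84 and 8.55, all higher. The within-strain changes lay between -0.01 in PWK and 0.43 in NZO, and in 0 of the 13 genotypes did Pycr1 reach an unadjusted p of 0.05. In x129 the controls read 9.73, 10.5 and 10.4 and the TM libraries 9.07, 9.69 and 9.19, all lower, a change of -0.13.

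Cth, cystathionine gamma-lyase, releases cysteine from cystathionine in the last step of transsulfuration. It was the only member with a mean fold above 2 in both sets, 2.28 in the founders and 2.11 in the crosses. In 129 the controls read 7.86 and 7.94 and the TM libraries 20.8, 19.2 and 18.9. In PWK they read 16.4, 16.3 and 16.5 against 50.9, 47.4 and 43.7. In A they read 22.3, 25.8 and 24.8 against 64.8, 86.4 and 59.3. The changes in these strains were 1.30, 1.52 and 1.51 on the log2 scale, the last being 1.29 without the libraries of A that stood apart. B6 and NOD had the lowest changes of the founders. B6 went from 30.6 and 33.9 to 59.1 and 55.5, a change of 0.83, and NOD from 19.98 and 19.4 to 35.5, 35.3 and 34.2, also 0.83. The remaining strains, CAST at 0.98, WSB at 1.23 and NZO at 1.33, lay between, and TM and control libraries did not overlap in any of the 13 genotypes.

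For the founders 7 members had every TM library above every control in each of the 8 strains, where 4.12% of all genes did. For the crosses 6 members did so in each of the 5, where 4.53% did. Asns was the member that met this rule in the founders and not in the crosses, through xWSB.

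**Figure D3:**
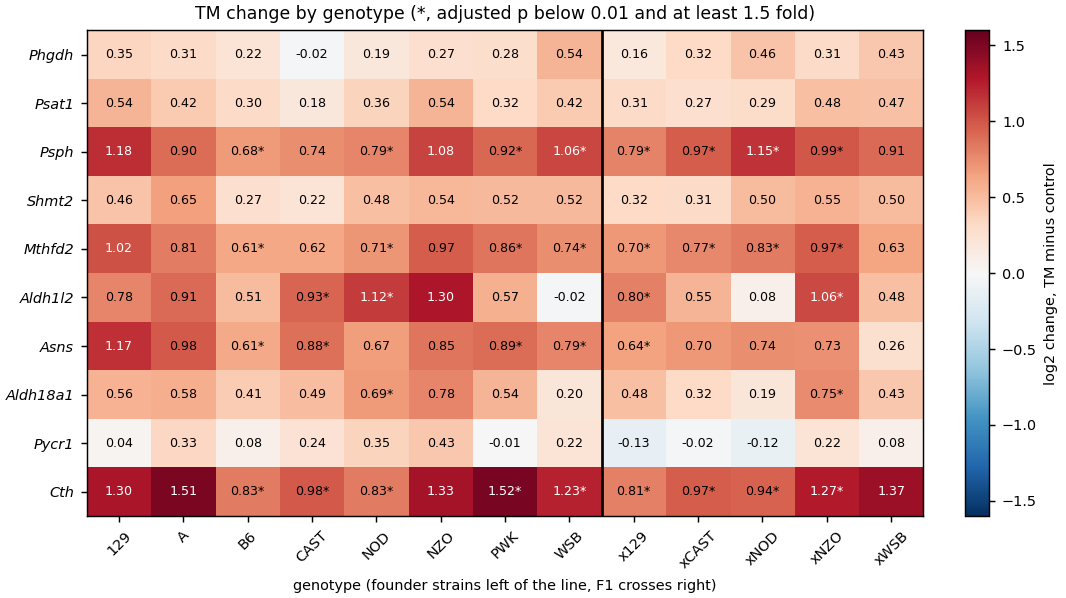
Log2 change (TM minus control, colour and printed value) of each member (rows) in each genotype (columns), with founder strains left of the line and F1 crosses right. Stars mark an adjusted p below 0.01 with at least 1.5 fold (limma within the genotype), 20 in the founders and 16 in the crosses. Cth, Psph, Mthfd2, Asns, Psat1, Shmt2 and Aldh18a1 are positive in all 13 genotypes.

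Within single genotypes, each tested on its own 4 to 6 libraries, 20 of 80 combinations of member and founder strain were induced at an adjusted p below 0.01 with at least 1.5 fold (limma), where 2.4% of all combinations of gene and strain were. Cth was induced in 5 strains, B6, CAST, NOD, PWK and WSB, Psph and Mthfd2 in B6, NOD, PWK and WSB, and Asns in B6, CAST, PWK and WSB. Aldh1l2 was induced in CAST and NOD and Aldh18a1 in NOD. Phgdh, Psat1, Shmt2 and Pycr1 were induced in 0 strains. By strain, the calls were 5 in NOD (1.45% of all genes), 4 in B6 (5.04%), in PWK (6.36%) and in WSB (2.85%), 3 in CAST (2.54%), and 0 in 129 (0.315%), A (0.346%) and NZO (0.32%). The median change of the members was 0.67 in 129, 0.73 in A and 0.82 in NZO, and 0.46 to 0.68 in the other strains. At an unadjusted p under 0.05, 7 members passed in 129, 8 in A and 8 in NZO, and edgeR called 0 in these 3 strains too. The share of all genes under that p was not counted, so these counts do not set the members apart from other genes. In B6, CAST, NOD and PWK edgeR called as many members as limma, in PWK without TM replicate 2, which it could not use. In WSB, where it could not use TM replicate 1, it called 1, Psph, and not Asns, Mthfd2 or Cth.

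Several within-strain calls changed when 1 library was left out. In B6, which members were called changed without control replicate 2 or TM replicate 3. Without TM replicate 3 of NZO 6 members were called there, Asns, Psph, Mthfd2, Aldh18a1, Cth and Aldh1l2, and without TM replicate 3 of 129 there were 4, Asns, Psph, Mthfd2 and Cth. All 5 calls of NOD were lost without any 1 of its TM libraries. WSB had 0 calls without control replicate 2, 1 without control replicate 3 and 2 without TM replicate 1 or 2, and CAST had 1 without TM replicate 2 and 5 without control replicate 1. One more member was called in CAST without control replicate 3 or TM replicate 3 (Psph), in NOD without either control (Asns) and in PWK without control replicate 2 or 3 or TM replicate 1 (Aldh1l2). A fit of all 40 libraries together, which pools the spread, called 31 of 80. It called more members in 129 (4), A (5) and NZO (6) and fewer in B6 (2) and NOD (3). Without the 3 libraries that stood apart the separate fits called 27. Shares of all genes were not counted for these fits or with a library left out, so these counts cannot be set against all genes.

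Of 50 combinations in the crosses, 16 were induced, against 2.54% of all combinations of gene and cross. Psph, Mthfd2 and Cth were induced in x129, xCAST, xNOD and xNZO, Aldh1l2 in x129 and xNZO, Asns in x129 and Aldh18a1 in xNZO. There were 5 calls each in x129 (4.88% of all genes) and xNZO (1.44%), 3 each in xCAST (2.52%) and xNOD (3.69%) and 0 in xWSB (0.185%). In xWSB edgeR called 0 too, and 6 members had an unadjusted p under 0.05, a share not counted over all genes. The change of Cth in xWSB was 1.37 (adjusted p = 0.0475), and with the replicate number as a block, which paired the libraries of this cross, xWSB also had 0 calls. Without both libraries that stood apart xWSB had 5, Phgdh, Psph, Shmt2, Mthfd2 and Cth, with no share of all genes counted for that fit. The calls of xNZO fell to 0 without control replicate 2 or any 1 of its TM libraries and to 3 without control replicate 1, those of xCAST to 0 without either control or TM replicate 1 or 2, and those of xNOD to 0 without any 1 of its controls and to 2 without TM replicate 1. Those of x129 fell to 3 without control replicate 1 and to 4 without control replicate 2 or TM replicate 1, where Asns was lost. The count was 5 in xCAST without TM replicate 3, 4 in xNOD without TM replicate 2 and 6 in xNZO without control replicate 3, with Asns added in each.

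The next comparison asks whether the change itself differed among strains. Log2 ratios of TM libraries to the median of their strain's controls were compared over the 8 strains, and 0 of 10 members passed an adjusted p of 0.01 (limma moderated F test), where 2.9% of all genes did. At an unadjusted p under 0.05, a share not counted over all genes, there were 6, Psat1, Mthfd2, Aldh18a1, Pycr1, Cth and Aldh1l2. This test takes the median control as free of error. The interaction of strain and treatment, which does not, called 0 members and 0.174% of all genes, and only Cth had an unadjusted p under 0.05 (0.00521, adjusted 0.473). Cth had the smallest adjusted p of the first test as well (0.0242), followed by Aldh1l2 (0.0683). An unmoderated F test passed 1 member, Psat1 (adjusted p = 0.00413). Without TM replicate 2 of A the moderated test passed Aldh1l2 (adjusted p = 0.00905). Without the 3 libraries that stood apart it passed Aldh1l2 (0.00277) and Cth (0.009998), while the interaction then gave 0.115 and 0.201. On simulated reads with no strain difference, the moderated test made 1538 false calls among 13167 genes. A pass by it alone does not show a strain difference.

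**Figure D4:**
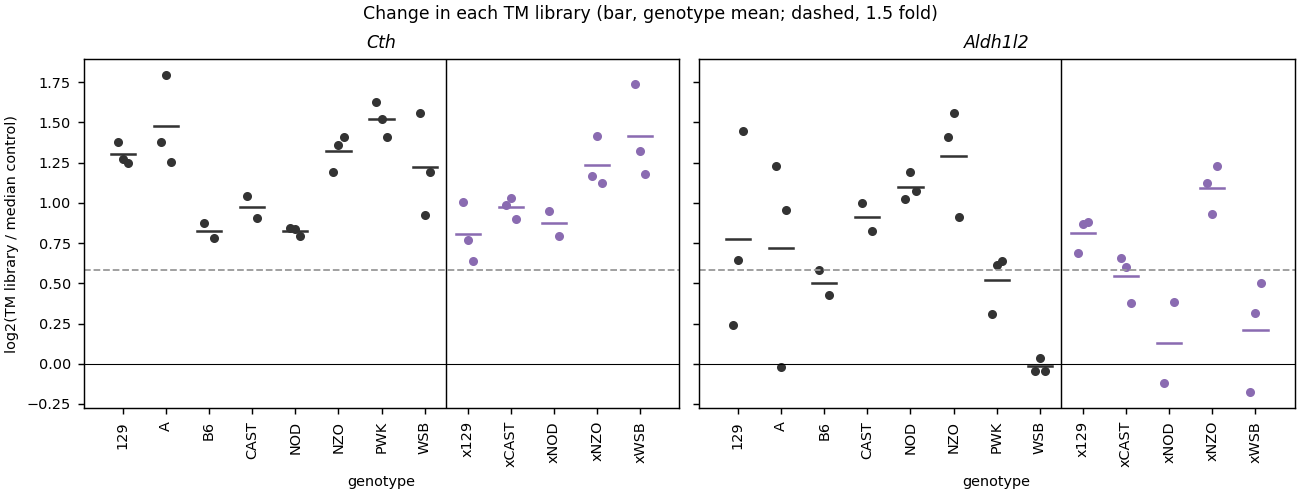
Log2 ratio of each TM library to the median control of its genotype (y axis) for Cth (left) and Aldh1l2 (right) in 8 founder strains and 5 F1 crosses (x axis), with bars at the genotype mean and a dashed line at 1.5 fold. All 36 points of Cth lie above 1.5 fold, from 0.64 to 1.80, and those of Aldh1l2 run from -0.18 to 1.56.

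In the crosses the same test passed 0 of 10 members, where 0.227% of all genes passed, and the interaction passed 0, where 0.0547% did. Unadjusted p-values under 0.05, again not counted over all genes, were found for Aldh18a1, Cth and Aldh1l2 by the first test and for Aldh18a1 and Aldh1l2 by the interaction. Aldh1l2 came nearest (adjusted p = 0.0366 by the first test, 0.782 by the interaction), and without control replicate 2 of xNZO it passed the first test (0.00871). Its controls in xNZO read 21.3, 26.3 and 22.9 and its TM libraries 50.04, 43.7 and 53.9, while in xNOD the controls read 29.2, 33.2 and 28.8 and the TM libraries 26.9 and 38.1, on both sides of them.

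Members differed among strains in the DMSO controls, without TM. Control levels differed for 9 of 10 members (limma F test over 18 control libraries, adjusted p below 0.01), where 35.8% of 13169 genes did. Phgdh was the exception (adjusted p = 0.119), and without control replicate 1 of A, where it read 831, it passed as well (0.00459). Psph passed narrowly (0.00793) and lost the call without any 1 of 14 of the 18 controls (adjusted p between 0.0108 and 0.0357), those of 129, B6, NOD, NZO, WSB and PWK and replicate 3 of CAST.

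Cth had the widest spread of control levels, 4.08 fold between the means of B6, 32.2 ± 2.39 (SD, n = 2), and 129, 7.90 ± 0.0555 (SD, n = 2). The order from the top was B6, A (24.3), WSB (20.5), NOD (19.7), PWK (16.4), CAST (13.95), NZO (10.9) and 129, and of its 7 neighbouring pairs 1, WSB and NOD, overlapped in their libraries. With TM the means ran from 70.2 in A to 19.6 in 129, 3.57 fold, or 3.16 fold without TM replicate 2 of A. Cth levels in the TM libraries of 129 were below the controls of A and B6.

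Aldh1l2 was next, 3.16 fold between B6 (80.6) and NZO (25.5), with PWK (70.6) clear of the rest and the strains from A to NZO overlapping with their neighbours. Pycr1 followed with 2.75 fold between PWK (15.7) and NZO (5.72). PWK, B6 and WSB overlapped at the top, the other 5 strains overlapped from neighbour to neighbour, and the groups were apart between WSB (12.99) and CAST (9.47). For Asns the means ran from 194 in B6 to 88.4 in 129, 2.19 fold. The remaining members had ratios between 1.63 for Phgdh and 1.89 for Aldh18a1 and Psat1, and that of Phgdh was 1.50 without control replicate 1 of A.

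B6 had the highest control mean for Asns, Psph, Aldh18a1, Cth and Aldh1l2. NZO had the lowest for Phgdh, Psat1, Psph, Mthfd2, Pycr1 and Aldh1l2, and 129 for Asns, Shmt2, Aldh18a1 and Cth. A was highest for Phgdh (594) through control replicate 1, and without it stood at 475, below 129 (547). CAST was highest for Psat1 (347) and Shmt2 (216), WSB for Mthfd2 (141) and PWK for Pycr1. Summed over the 10 genes the control mean was 1059 in NZO, 1209 in 129 and 1701 in B6, and with TM it was 1637, 1835 and 2222. The TM sum of NZO was 1517 without TM replicate 3. The sum in A with TM was 2303 ± 264 (SD, n = 3), and 2162 without TM replicate 2, which stood apart. After TM neighbouring strains overlapped in all 7 pairs for Asns, Phgdh, Psph and Aldh1l2.

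**Figure D5:**
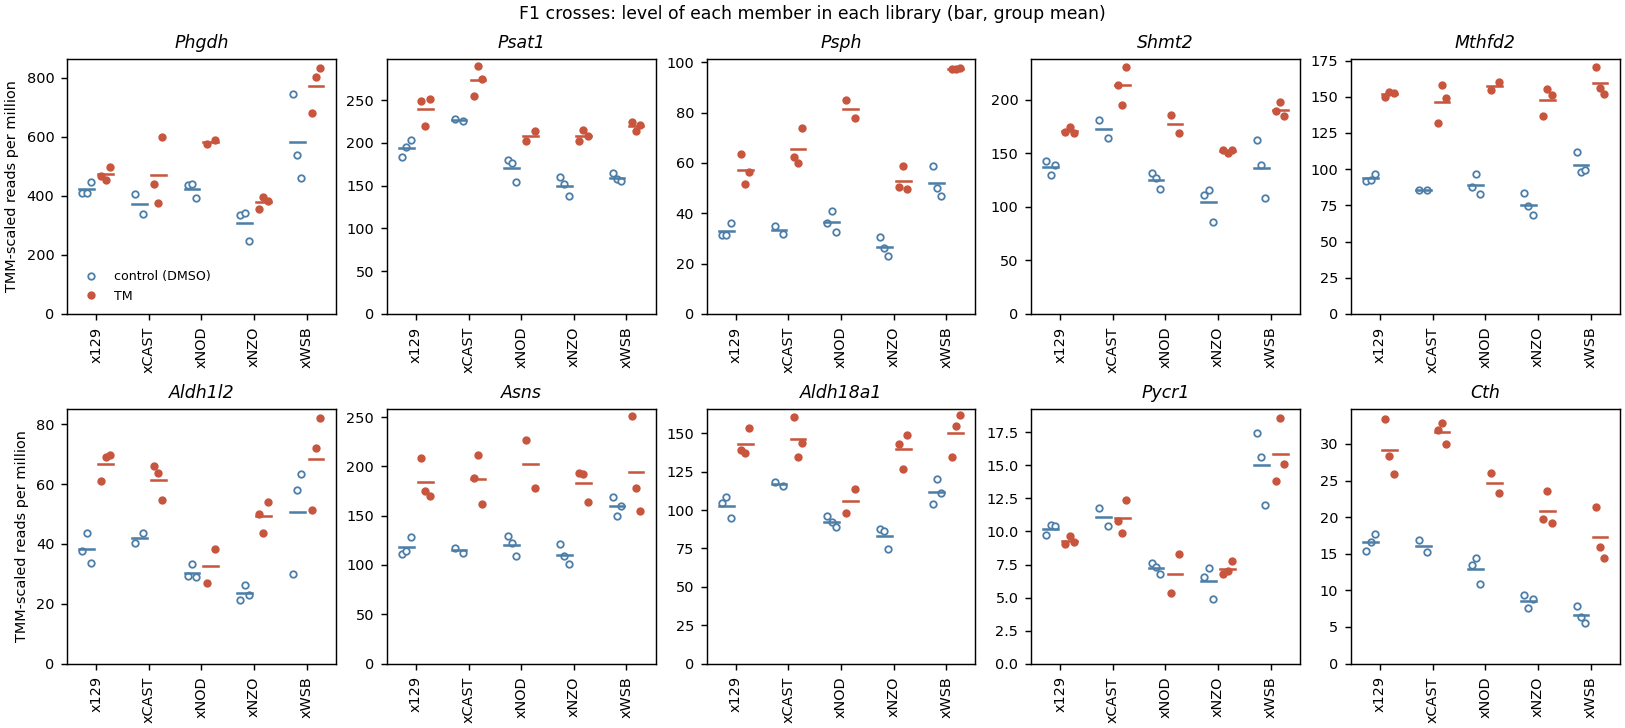
Level of each member in the 28 F1 libraries, in TMM-scaled RPM on linear axes that start at 0, with open circles for DMSO controls, filled circles for TM libraries and bars for group means. xWSB has the highest control mean for Phgdh, Psph, Asns, Pycr1, Mthfd2 and Aldh1l2 and the lowest for Cth.

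In the crosses control levels differed for 6 of 10 members, Asns, Psat1, Psph, Aldh18a1, Pycr1 and Cth (adjusted p below 0.01), where 21.4% of 12787 genes did. All 10 had an unadjusted p under 0.05, a share not counted over all genes. The count was 3 without control replicate 2 or 3 of xCAST, where Asns, Psat1 and Aldh18a1 were lost, 4 without control replicate 1 or 2 of x129 or control replicate 2 of xNOD, xNZO or xWSB, where Asns and Aldh18a1 were lost, and 8 without control replicate 1 of xWSB, which adds Phgdh, Shmt2 and Aldh1l2 and loses Asns. Aldh18a1 alone was lost without control replicate 1 or 3 of xNOD or 3 of xNZO, and without control replicate 3 of xWSB Phgdh and Shmt2 were added and Asns was lost. Control replicate 1 of xWSB had the lowest Aldh1l2 of its group, 30.1 against 58.1 and 63.5, and the highest Phgdh, 745 against 538 and 462. Cth ranged from 16.5 ± 1.16 (SD, n = 3) in x129 to 6.58 ± 1.20 (SD, n = 3) in xWSB, 2.51 fold, and x129 overlapped with xCAST and xNZO with xWSB. Pycr1 was highest in xWSB, 15.0 ± 2.74, and lowest in xNZO, 6.22 ± 1.18 (SD, n = 3 each). Psph controls read 58.9, 50.01 and 46.9 in xWSB, above every control of the other crosses. xWSB was also the cross with the lowest sum of cycling markers, given above, and the part of that difference in its levels was not tested.

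Each cross stands beside its parents only through its change, since levels of both sets were scaled separately, and the founder B6 is a parent of all 5. For Cth the changes were 0.83 in B6, 1.33 in NZO and 1.27 in xNZO. They were 1.30 in 129 and 0.81 in x129, 0.98 in CAST and 0.97 in xCAST, 0.83 in NOD and 0.94 in xNOD, and 1.23 in WSB and 1.37 in xWSB. For Aldh1l2, with 0.51 in B6, the values were 1.30 in NZO and 1.06 in xNZO, -0.02 in WSB and 0.48 in xWSB, and 1.12 in NOD against 0.08 in xNOD. The change lay between those of the parents for 8 members in xNZO, 6 in x129 and in xWSB, 4 in xCAST and 0 in xNOD. This was not counted over all genes, and NZO and xWSB include libraries that stood apart. Some parents were nearly equal, as B6 and NOD for Cth (0.829 and 0.825) and B6 and CAST for Mthfd2 (0.613 and 0.618). The counts therefore do not rank the crosses. No test spans both sets.

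Among 45 other genes of these pathways, all listed in the founder tables, 2 were called up on average over the founders and 1 down, where 6.04% and 5.41% of all genes were, shares no lower than those of these lists. Got1, the cytosolic aspartate aminotransferase, rose by 0.81 in the founders and 0.65 in the crosses. Dld, the lipoamide dehydrogenase that the glycine cleavage system shares with other mitochondrial complexes, rose by 0.77 and 0.70. Aldh4a1, which degrades the pyrroline intermediate to glutamate, fell by 0.63 in the founders (adjusted p = 1.00e-12), and its change was -0.53 in the crosses, under the 1.5-fold minimum.

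By list, 1 of 21 genes of serine, glycine and folate was called up and 0 down, with a median of 0.02 on the log2 scale. For asparagine, aspartate and glutamine it was 1 of 8 up and 0 down (median -0.15), for proline and ornithine 0 of 8 up and 1 down (median 0.00), and for methionine and cysteine 0 of 8 either way (median -0.11). The median of all genes was -0.04. In the crosses the counts were 1 of 20, 1 of 8, 0 of 7 and 0 of 8 up and 0 down in each, with medians of 0.04, -0.20, 0.09 and -0.10, where 4.95% of all genes were called up and 5.54% down.

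By likeness of level over the 40 founder libraries (Pearson r of log2 values), the gene outside the set most like Psph was Atf4 (0.94), and that most like Asns was Cebpg (0.92), which encodes a C/EBP partner of ATF4. Cth was most like Adm2 (0.92), Shmt2 like Pck2 (0.90), the mitochondrial phosphoenolpyruvate carboxykinase, and Aldh1l2 like Slc7a1 (0.87), a cationic amino acid transporter. The nearest genes of Mthfd2, Aldh18a1, Phgdh, Psat1 and Pycr1 were Spata5 (0.95), Ino80 (0.90), Pdcl3 (0.88), Tbc1d31 (0.86) and Tpcn2 (0.80). Over the 28 F1 libraries these pairs had r between 0.72 and 0.92, apart from Pycr1 and Tpcn2 (0.12). The libraries share genotypes, treatment and depth, and the pairs were picked as the highest of all genes, so r is a description. Between members r in the founders was highest for Psph and Mthfd2, 0.92, and lowest for Phgdh and Aldh1l2, -0.01. In the crosses it was highest for Aldh18a1 and Aldh1l2, 0.91, and was 0.90 for Psph and Mthfd2.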

How the data were processed

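Libraries were single-end mRNA-seq of cultured MEFs. Alignment by the authors was with TopHat 1.4.1 to a genome built for each strain (GRCm38), and counts were TMM-scaled in edgeR. Libraries that fell outside their condition in a principal component analysis were dropped by the authors before a second scaling. The deposited values are called FPKM by the authors, but within a library all genes share 1 step of whole reads, so the deposited signal is RPM over the TMM-scaled library size. Tests had been designed for FPKM and remained on the log scale. Whole reads were recovered in 66 libraries (tolerance 0.1), and the other 2 entered all tests except those on reads. Founder and F1 sets were scaled apart. In the F1 set 3 lines of unassigned reads were left out (15.5% to 24.1% of the values).

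Computations used Python 3.11.15 (numpy 2.4.6, pandas 2.3.3, matplotlib 3.10.9), R 4.3.3, limma 3.58.1 and edgeR 4.0.16. limma (eBayes with trend) was run on log2(value + 0.1), which understates changes of low genes, over genes with at least 0.5 in at least 2 libraries, with Benjamini-Hochberg adjustment over all of them. Calls needed FDR 1% and 1.5 fold, and F tests FDR 1%. On simulated reads with no strain difference, the test on changes against the median control made many false calls and the interaction made 0, but the interaction missed most of the differences simulated in a single genotype, so both are given and 0 calls by the interaction do not show that genotypes responded alike. The members and lists were chosen with earlier results of these data known. Named genes are the members, called genes of the pathway lists, treatment checks, overlapping genes and the likest gene of each member.

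Libraries were matched to genotype, treatment and replicate number by their labels. The numbers paired control and TM libraries in xWSB, where all 3 pairs deviated together (r over 0.1). No other genotype had 3 pairs that did, but 129 and NZO, with only 2 pairs each, had both over 0.1. The alternatives tried were pseudocount 1, no filter, mean values of at least 2, median-of-ratios scaling, no trend, 1 fit per set, FDR 5%, the replicate block, edgeR's quasi-likelihood test on recovered reads, leaving out each library and, chosen after seeing the data, leaving out libraries that stood apart.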

Additional observations from a re-analysis of the deposited data

How the results depend on the processing

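Both counts of mean changes, 5 in the founders and 5 in the crosses, were 4 or 5 under every alternative except the joint removal of the 2 libraries of xWSB that stood apart, with 3 (leaving out single libraries, 5 to 5 and 4 to 5). The 20 founder and 16 F1 induction calls moved more. The founder count was 12 with no filter, 4 with no trend in the prior variance, 31 in 1 fit, 33 at FDR 5% and 12 in 1 fit with the replicate block, and 15 to 26 without single libraries. In the 6 strains that could be fitted with the block it called 17 against 13 without it. Shares of all genes were not counted under the alternatives. The F1 count was 4 with no trend and 11 to 18 without single libraries, and 11 with the block. Where a library was left out of a group of 2, the lone one was assumed to vary like the others. Same-numbered control and TM libraries correlated between -0.67 and 0.61 in the founders (6 of 16 pairs over 0.1). In the crosses they correlated between -0.51 and 0.43 (5 of 13). Every same-numbered pair was over 0.1 in xWSB (0.35, 0.37 and 0.17), in 129 (0.19 and 0.61) and in NZO (0.44 and 0.45). With only 2 pairs each, 129 and NZO do not settle whether the number pairs their libraries. By genotype the block moved the calls from 0 to 6 in 129, 0 to 3 in NZO, 5 to 3 in NOD, 4 to 1 in WSB and 5 to 0 in xNZO, and from 3 to 2 in xCAST and 3 to 4 in xNOD. It moved no count of mean changes or control levels by over 1.5 times.

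The strain effect passed 0 members in the main test, 1 by the unmoderated F test, 1 when adjusted over induced genes, 2 without the libraries that stood apart and 0 to 1 without single libraries. For the crosses it passed 1 when adjusted over induced genes and 0 to 1 without single libraries. Control levels differed for 8 to 10 founder members and 3 to 8 F1 members without single libraries.

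Sign changes touched Pycr1, Phgdh and Aldh1l2 where their change was near 0. Pycr1 in 129 was -0.0026 with the replicate block and in 1 fit with it, -0.0081 by edgeR and -0.29 to 0.37 without single libraries. By edgeR it was 0.023 in PWK and 0.018 in xCAST. Without single libraries Pycr1 ran from -0.035 to 0.20 in B6, -0.080 to 0.048 in PWK, -0.11 to 0.068 in xCAST, -0.44 to 0.20 in xNOD, -0.069 to 0.20 in xWSB and -0.056 to 0.071 for the F1 mean. Phgdh ran from -0.062 to 0.019 in CAST and -0.023 to 0.42 in NZO (-0.023 without the library that stood apart), and Aldh1l2 from -0.043 to 0.00079 in WSB and -0.17 to 0.33 in xNOD. Pycr1 was the least abundant of the members and Phgdh the most abundant, and the cause of the sign changes was not tested.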
